A study of Mus musculus with 9 samples.

Results

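The replication-dependent histone genes encode the H1, H2A, H2B, H3 and H4 proteins that package newly made DNA. They were taken as every gene whose name begins with Hist1h, Hist2h, Hist3h or Hist4h, which gave 70 of the 48526 genes in the count table: 6 H1, 20 H2A, 19 H2B, 12 H3 and 13 H4 genes. By name, 56 of them belong to the large cluster on chromosome 13, 10 to the cluster on chromosome 3, 3 to that on chromosome 11, and Hist4h4 lies alone on chromosome 6. Hist1h2al, counted among the 56 by its name, lies apart from them at chr13:51200084-51203066 (RefSeq on build GRCm38). The 70 genes were measured in BV-2, an immortalised murine microglial line. The 3 groups of 3 libraries carry the replicate numbers 4, 5 and 6. Unprimed cells (UP) received LPS, a bacterial cell wall component, only at restimulation. Ultra-low primed cells (ULP) were first given 1 fg/ml LPS and high primed cells (HP) 100 ng/ml. All 3 groups were restimulated with 100 ng/ml LPS on day 6, so no group is free of LPS. Groups follow the sample titles and descriptions, since a separate dose field swaps the ULP and HP doses. BV-2 is a single line, and no label says that the replicates were separate cultures, so p-values measure only the spread between these libraries.

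Transcripts of these genes accumulate in S phase, when DNA is copied. As background, most of them end just after a short stem-loop and carry no poly(A) tail. The stem-loop is bound by Slbp, the stem-loop binding protein, and cleavage behind it needs the U7 small nuclear ribonucleoprotein with Lsm10 and Lsm11. Some histone genes can also give longer transcripts that run past the stem-loop to an ordinary poly(A) signal. The libraries here were made from poly(A)-selected mRNA, so their histone counts come from transcripts that passed that selection, and not from the whole histone mRNA pool. In bulk libraries, a change in the share of cells in S phase and a change in RNA per cell cannot be told apart.

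The stem-loop is the sequence that separates these transcripts from other mRNA, and it is shown here for members that carried most counts of their type or on which later comparisons turn. A pattern with a stem of 6 base pairs and a loop of 4 bases was found in annotated transcripts of 47 of the 70 genes (GENCODE on build GRCm39). Some annotated transcripts may end before the stem-loop, so a missing match does not show that a gene lacks it. Capitals mark the 16 bases of the pattern, and the lower-case bases are the flanks.
Hist1h1c: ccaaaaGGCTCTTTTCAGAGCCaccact
Hist3h2a: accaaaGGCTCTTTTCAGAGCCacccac
Hist1h2bc: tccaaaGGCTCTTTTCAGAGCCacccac
Hist1h2bf: cccaaaGGCTCTTTTCAGAGCCacctac
Hist2h3c2: cacaaaGGCTCTTTTCAGAGCCaccaca
Hist1h3f: caaaacGGCTCTTTTAAGAGCCacctcc
Hist1h4i: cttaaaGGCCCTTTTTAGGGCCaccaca
Hist1h4j: cctaaaGGTCCTTTTCAGGACCaccaca
The form of Hist1h1c was shared by 27 genes, none of them H4, and that of Hist1h3f by 6. H4 genes had stems of their own: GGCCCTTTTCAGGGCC in 7 genes, and the forms of Hist1h4i and Hist1h4j in 2 each. No H4 gene held a stem-loop form found in another type.

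Histone transcripts were a small part of every library. Of 24189203 to 27802244 assigned counts per library, 4242 to 6278 fell on the 70 genes, and their deposited levels summed to 162 to 240 RPM (counts of a gene relative to all assigned counts of its library). Over all libraries they drew 44781 counts, of which 17028, or 38.0%, came from Hist1h1c, a linker histone that binds DNA between nucleosomes. Hist1h2bc followed with 9385 counts, Hist2h2be, also an H2B gene, with 4449 and Hist1h4i with 2014. These 4 genes held 73.4% of the histone counts. Hist1h1c (ENSMUSG00000036181) is annotated by RefSeq on build GRCm38 at chr13:23738807-23739531, Hist1h2bc (ENSMUSG00000018102) at chr13:23684199-23692480, Hist2h2be (ENSMUSG00000068854) at chr3:96221072-96223738 and Hist1h4i (ENSMUSG00000060639) at chr13:22040960-22041362, all of them protein-coding.

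Each of the 4 has an annotated transcript with a poly(A) signal (AATAAA or ATTAAA) in its last 50 bases. That of Hist1h1c runs 840 bases beyond the stem-loop and that of Hist1h4i 330, while the transcript of Hist2h2be holds no match to the stem-loop pattern. Hist1h2bc has 5 annotated transcripts, which run up to 373 bases beyond the stem-loop. Whether the one that runs farthest also holds the signal was not checked. Over the whole family, 20 genes had such a signal and held 85.4% of the counts, and the 50 genes without one held 14.6%. Medians per gene were 277.5 and 84.5 counts over the 9 libraries. A hexamer in a short window is a description of the annotation, and does not show where these transcripts ended.

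The types differed widely in how many of their genes were measurable. Per length, H2B genes summed to 68.7 to 154 RPKM (RPM divided by gene length), H1 genes to 38.4 to 63.3, H4 genes to 16.4 to 42.4, H3 genes to 7.92 to 17.1 and H2A genes to only 2.91 to 6.13. Of 19 H2B genes 16 had at least 100 counts over all libraries, against 1 of 20 H2A genes, although H2A and H2B stand side by side in each nucleosome. That gene was Hist3h2a with 539 counts. The filter on low counts accordingly kept 41 of the 70 genes for testing: 4 H1, 3 H2A, 16 H2B, 8 H3 and 10 H4. It kept members with enough counts in some group, so that what follows describes those 41.

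Near-identical copies limit what single genes can show. The share of 51-base windows (the read length) of a gene's transcripts that occur in no other gene had a median of 52.2% and ran from 0 to 100%. Genes annotated at the same place, on either strand, were not counted as other genes here. Windows shared only with such overlapping genes therefore count as unique. H2A genes had a median of 27.1%, H3 genes 43.0%, H2B genes 59.7%, H4 genes 69.7% and H1 genes 98.9%. Under 10% of the windows were unique in 9 genes, 7 of them H2A genes with 0 to 12 counts, yet the H2B gene Hist1h2bq had 929 counts with 2.37% of its windows unique. Values of such genes are uncertain, as no source used here says how reads with several alignments were counted. Near-identical genes may share reads, and all members were measured in the same libraries. Counts of members by sign or by p-value below are therefore not counts of independent results. No count was found in any library for 7 genes, namely Hist1h2aa, Hist2h2aa1, Hist2h2aa2, Hist2h2bb, Hist3h2ba, Hist2h3b and Hist2h3c1, and 3 counts in a library corresponded to 0.1079 to 0.124 RPM. Hist2h3c1 and Hist2h3c2 carry the same stem-loop and flanks, and Hist2h3c2 alone drew counts (800).

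**Figure D1:**
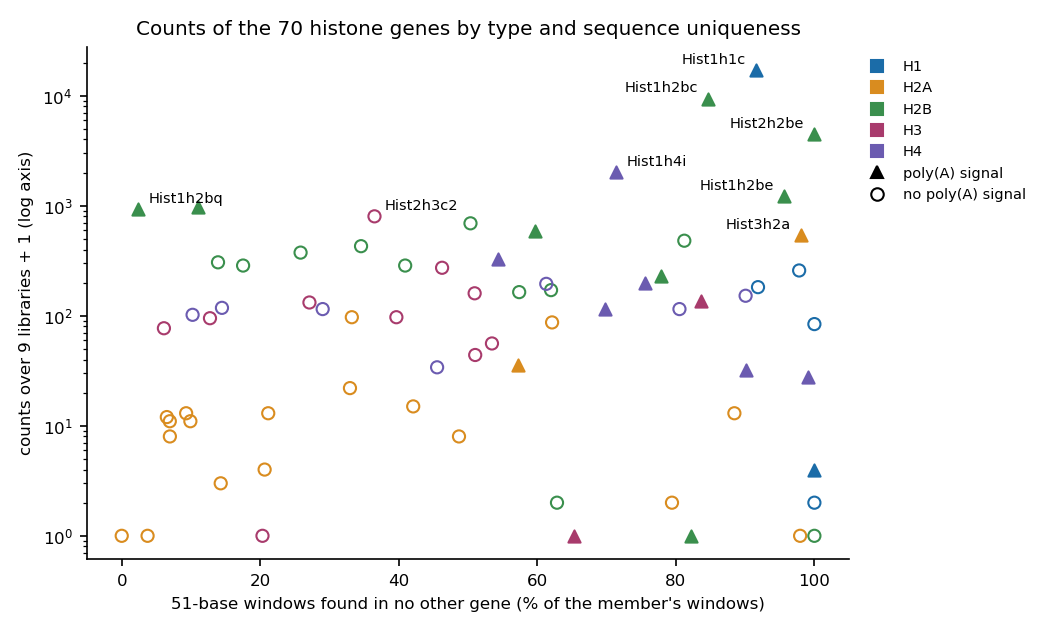
Each point is one of the 70 histone genes. The x axis gives the share of its 51-base windows found in no other gene (percent), overlapping genes not counted as others. The y axis gives its counts over 9 libraries plus 1 (log scale). Filled triangles are genes with an annotated poly(A) signal and open circles genes without one. Hist1h1c, Hist1h2bc, Hist2h2be and Hist1h4i lie highest and are triangles, and H2A genes other than Hist3h2a lie below 100 counts.

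The libraries did not separate by group alone, and this touches every comparison below. Along the first principal component of all tested genes (79.1% of the variance), the UP libraries lay at -73 to -46.4, ULP replicate 4 at -39.2 and HP replicate 6 at -20.4, whereas the other 4 primed libraries lay at 44 to 75.5. The same 4 were high in RNAs that poly(A) selection should deplete or that stay in the nucleus. Small nucleolar and other RNAs without a poly(A) tail (157 genes in the table, 103 of them at 0) summed to 2.48 to 4.15 RPM in UP cells, 4.36, 6.87 and 6.70 in ULP and 11.7, 10.7 and 4.15 in HP replicates 4, 5 and 6. Malat1, a nuclear noncoding RNA, ranged from 2.17 to 3.14 RPKM in UP cells and reached 96.7 in HP replicate 5. The part of these differences in the histone values was not tested. Of 15 microglia and macrophage marker genes 11 were tested, summing to 3030 to 4000 RPM. Fcrls was listed at 0 throughout, and Cx3cr1 and P2ry12 at means below 0.02 RPKM. Of 5 neuron markers none was tested, and they summed to at most 0.146 RPM. The 4 astrocyte markers, 1 of them tested, summed to 4.53 to 5.93 RPM in UP libraries, 3.64 to 5.28 in ULP libraries and 2.45 to 3.29 in HP libraries, nearly all of it Aldh1l1, while Aqp4 was listed at 0 throughout. The 4 oligodendrocyte markers, of which 2 were tested, gave 0.922 to 1.09, 0.88 to 1.69 and 1.25 to 2.66 RPM in the same order of groups, highest in HP replicates 4 and 5, and 3 endothelial markers 0.751 to 1.88 RPM over all libraries. No astrocyte, oligodendrocyte or endothelial marker was called, and the part of these lists in the histone values was not tested.

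Summed by type, H2B genes separated HP from UP cells and H1 genes separated no groups. H2B genes stood at 70.8, 73.5 and 60.0 RPM in UP replicates 4, 5 and 6, at 67.7, 95.1 and 100 in ULP and at 129, 111 and 94.6 in HP. All 3 HP libraries lay above all 3 UP libraries, while ULP replicate 4 lay among the UP values. H1 genes, that is almost wholly Hist1h1c, stood at 73.8, 88.0 and 82.5 RPM in UP, at 74.9, 57.7 and 60.1 in ULP and at 71.3, 66.6 and 95.4 in HP, where both primed groups overlapped UP.

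H3 genes summed to 8.18, 8.50 and 7.98 RPM in UP and to 5.81, 7.06 and 5.25 in ULP replicates 4, 5 and 6, so that these groups did not overlap. In HP they spread from 10.9 and 11 in replicates 4 and 6 down to 6.42 in replicate 5, so that the HP range enclosed the UP range. H4 genes stood at 11, 13.4 and 9.32 RPM in UP, at 11.1, 16 and 17.1 in ULP and at 24.5, 14.7 and 18.3 in HP. Every HP library was above every UP library in RPM, but after scaling by TMM factors HP replicate 5 (14.1) lay below UP replicate 5 (14.5). Hist1h4i held 2014 of the 3531 H4 counts over all libraries. The 7 H4 genes without a poly(A) signal, which leave out Hist1h4i, gave 2.96, 3.55 and 2.48 RPM in UP. In HP they gave 5.9, 2.08 and 4.62 RPM, with replicate 5 below every UP library. H2A genes summed to 2.68 to 4.83 RPM in all 9 libraries and did not separate any groups.

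**Figure D2:**
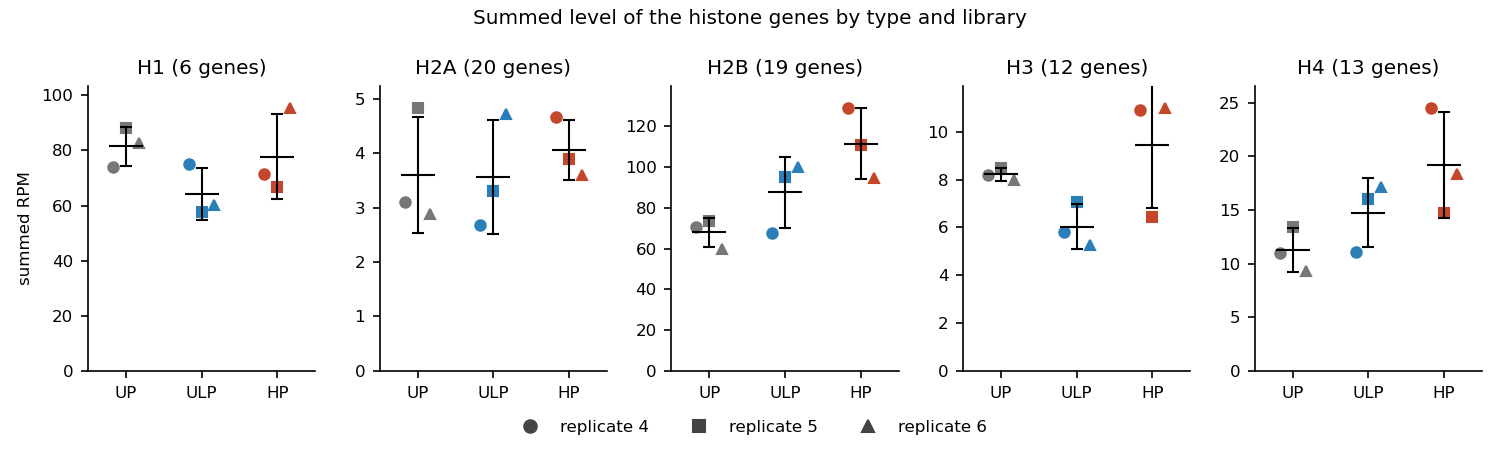
Summed RPM (y axes, from 0) of all genes of each histone type in UP, ULP and HP libraries. Symbols are libraries by replicate number, and bars give the group mean and SD (n = 3). H2B and H4 sums of HP libraries lie above those of UP libraries. For H4 this did not hold after scaling by TMM factors (HP replicate 5 at 14.1, UP replicate 5 at 14.5). Hist1h4i held 2014 of the 3531 H4 counts. The H3 sums of ULP libraries lie below those of UP libraries, and HP replicate 5 stands low among HP libraries for H3.

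The first comparison asked how priming with the ultra-low dose changed histone transcripts against no priming. No histone gene passed the adjusted threshold of 0.05 in edgeR's quasi-likelihood test, and neither did any of the 14702 genes tested (0%). DESeq2 called none of the members either, though it called 7.07% of all genes, and limma called no gene at all. At an unadjusted p under 0.05, 5 histone genes were higher and 5 lower, or 24.4% of 41, against 27.1% of all genes tested (17.3% higher and 9.79% lower). The members split 21 to 20 by sign, with a median log2 fold change of 0.02 beside -0.01 over all genes tested. Offsets for gene length and GC content turned the split to 28 to 13 and 27 to 14, beside 48.9% and 59.4% positive over all genes.

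The even split held types of opposite sign. Of the H2B genes 13 of 16 had a positive log2 fold change (median 0.17), and of the H3 genes 0 of 8 (median -0.48), whereas 49.3% of all genes tested were positive. H4 genes split 5 to 5 with a median of 0.00 and H1 genes 2 to 2. With an offset for GC content, which put the median of all genes at 0.08, the H3 median was -0.13 with 2 of 8 genes positive, the H4 median 0.40 and the H2B median 0.26. H3 medians remained negative and H2B medians positive under all 24 alternatives run, between -0.70 and -0.12 and between 0.04 and 0.34.

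Of the H3 genes, Hist2h3c2, Hist1h3f and, named after its values were seen, Hist1h3h (-0.74, SE 0.58) had groups that did not overlap. Hist2h3c2 had 3.69, 4.54 and 3.65 CPM (the RPM scale with library sizes adjusted by TMM factors) in UP replicates 4, 5 and 6 and 2.61, 2.84 and 2.07 in ULP. Every ULP value was below every UP value, with a log2 fold change of -0.66 (SE 0.20, adjusted p = 0.169). Hist1h3f gave 0.707, 0.967 and 0.602 CPM in UP and 0.395, 0.474 and 0.279 in ULP, a log2 fold change of -0.97 (SE 0.35, adjusted p = 0.169). Hist1h3g overlapped between groups, at 1.06, 0.925 and 1.47 CPM in UP and 0.79, 1.09 and 0.716 in ULP (-0.41, SE 0.36). Groups were apart in 4 members that were higher and 6 that were lower in ULP cells. These are shares of 9.76% and 14.6% of the members tested, beside 14.8% and 13.5% of all genes tested.

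Among H2A genes, Hist2h2ac lay below the UP range in every ULP library, at 0.277, 0.109 and 0.239 CPM against 0.393, 0.883 and 0.414 in UP (log2 fold change -1.42, SE 0.53, adjusted p = 0.169). Hist1h2al, annotated as a processed pseudogene, showed the same order, at 0.511, 0.841 and 0.527 CPM in UP and 0.395, 0.182 and 0.358 in ULP, with a log2 fold change of -0.998 (SE 0.43). Both are low genes, with 86 and 96 counts over 9 libraries. Hist3h2a overlapped, at 1.53, 2.86 and 1.28 CPM in UP and 1.62, 2.26 and 3.38 in ULP (0.36, SE 0.38).

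Of the linker histones, Hist1h1c measured 73.2, 93.6 and 83.9 CPM in UP replicates 4, 5 and 6 and 75.3, 54.1 and 55.9 in ULP. ULP replicate 4 lay inside the UP range and the other ULP libraries below it (log2 fold change -0.44, SE 0.19, adjusted p = 0.18). Without ULP replicate 4 and HP replicate 6, a choice made after the data were seen, edgeR gave -0.57 with an adjusted p of 0.0115, and over all 24 alternatives its adjusted p ran from 0.0115 to 0.64. Hist1h1e had 1.22, 0.421 and 1.09 CPM in UP and 0.632, 0.365 and 0.318 in ULP (log2 fold change -1.06, SE 0.48), with overlap at UP replicate 5. Hist1h1d, at 0.757 to 1.09 CPM in UP and 1.07 to 1.24 in ULP, had 0.27 (SE 0.29).

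The H2B gene Hist2h2be had 14.2, 12.7 and 14.5 CPM in UP and 14.9, 21.7 and 21.9 in ULP replicates 4, 5 and 6. All ULP values exceeded all UP values, ULP replicate 4 by little (log2 fold change 0.50, SE 0.20, adjusted p = 0.172). Hist1h4i gave 5.94, 6.81 and 5.08 CPM in UP and 6.28, 9.01 and 10.5 in ULP, again with replicate 4 among the UP values (log2 fold change 0.53, SE 0.23, adjusted p = 0.178). Of the other H4 genes, Hist1h4h had 0.06 (SE 0.43) and Hist1h4j -0.21 (SE 0.38). When ULP replicate 4 was left out, edgeR called Hist2h2be (0.66), Hist1h4i (0.71) and Hist1h2bf (0.88) as higher, 7.32% of the members, beside 19.2% of all genes tested. Without both libraries 5 members were called higher and Hist1h1c lower, 14.6%, beside 38.2% of all genes. Over the 24 alternatives the adjusted p ran from 0.00524 to 0.569 for Hist2h2be and from 0.0148 to 0.664 for Hist1h4i.

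**Figure D3:**
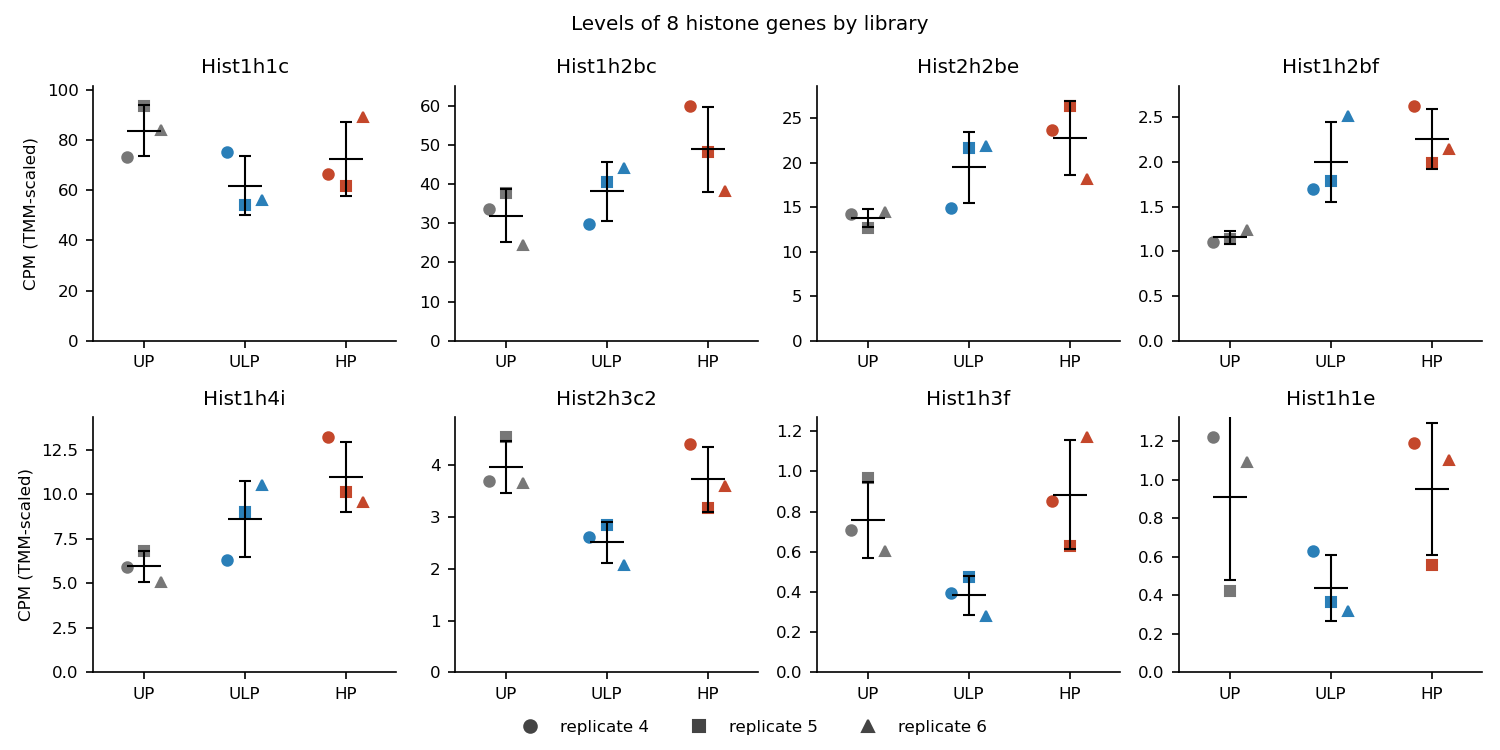
Levels (CPM scaled by TMM factors, y axes from 0) of 8 histone genes in UP, ULP and HP libraries, with symbols for the replicate numbers and bars for the group mean and SD (n = 3). Hist2h2be, Hist1h2bf and Hist1h4i are higher in every HP library than in every UP library, and Hist2h3c2 and Hist1h3f are lower in every ULP library than in every UP library.

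The second comparison asked the same of the high dose, and here most members had a positive sign. Of the 41 members 35 had a positive log2 fold change, or 85.4%, beside 50.6% of all genes tested, and the median was 0.35 beside 0.01. None of the members passed the adjusted threshold in edgeR, where 77 genes of all tested did (0.524%), 13 higher and 64 lower. DESeq2 called 3 members as higher (Hist1h4i, Hist2h2be and Hist1h2bf), or 6.25% of those it tested, where it called 20.7% of all genes. The fit to only the 6 libraries compared called the same 3 (10.6% of all genes), and the fit with no filter on low counts called Hist1h4i and Hist1h2bf (8.55%). Limma called no member. At an unadjusted p under 0.05, 9 members were higher and 1 was lower, 24.4% together, beside 40.9% of all genes tested (24.3% higher and 16.6% lower). Groups were apart upwards in 7 members (17.1%) and downwards in 1, beside 21.9% and 20.9% of all genes. The median of the members was thus above that of all genes, and the share of members with small p-values was not. Members were not matched to all genes by count, and the part of low counts in these shares was not tested. Without HP replicate 6 the signs were 28 to 13 in place of 35 to 6, with a median of 0.31.

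All 16 H2B genes had a positive log2 fold change in HP against UP cells, with a median of 0.51. With an offset for GC content 15 of them did (0.57, where the median of all genes was 0.11). These signs are not independent, as near-identical genes may share reads and all genes share the libraries. H4 genes were positive in 9 of 10 (median 0.36), H3 genes in 6 of 8 with a median of only 0.10, and H1 genes in 3 of 4 (median 0.21). With single libraries left out, the H2B median ran from 0.38 to 0.59, that of H4 from 0.09 (without HP replicate 4) to 0.63 (without HP replicate 5), that of H3 from -0.05 with 2 of 8 positive (without HP replicate 6) to 0.36 (without HP replicate 5) and that of H1 from -0.01 with 2 of 4 positive (without HP replicate 6) to 0.43 (without HP replicate 5). Hist2h2be had 23.7, 26.4 and 18.2 CPM in HP replicates 4, 5 and 6, each above the highest UP value of 14.5 (log2 fold change 0.72, SE 0.20, adjusted p = 0.0606). Hist1h4i reached 13.2, 10.1 and 9.55 CPM, all above the highest UP value of 6.81, with 0.88 (SE 0.23, adjusted p = 0.0606). An offset for GC content left both positive, at 0.53 and 1.23. Their adjusted p ran from 0.00106 to 0.371 and from 0.00295 to 0.371 over the 24 alternatives. The other H4 genes varied more, Hist1h4h at 0.825, 2.15 and 0.941 CPM in UP and 2.15, 0.804 and 1.59 in HP (0.22, SE 0.43) and Hist1h4j at 0.786, 1.05 and 0.527 in UP and 1.48, 0.734 and 0.906 in HP (0.40, SE 0.37). Both overlapped between groups, as did Hist1h3g with 1.78, 0.769 and 1.74 CPM in HP (0.30, SE 0.35).

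Hist1h2bc measured 33.6, 37.8 and 24.5 CPM in UP and 60.0, 48.2 and 38.3 in HP. The groups were apart by little at HP replicate 6 (log2 fold change 0.61, SE 0.23, adjusted p = 0.0849), but the value turned to -0.08 with an offset for GC content, so its direction depends on this scaling. That offset took GC from the longest GENCODE transcript of the gene, 2414 bases, where the deposited RPKM used a length of 736. Transcripts of Hist1h2bc also overlap the H2A gene Hist1h2ac on the opposite strand, and no source used here says whether counting used strand. Hist1h2bf, Hist1h2bg and Hist1h1b were chosen after their values were seen. Hist1h2bf had 1.10, 1.14 and 1.24 CPM in UP libraries, 1.70, 1.79 and 2.51 in ULP libraries and 2.63, 1.99 and 2.15 in HP libraries, so that neither primed group overlapped UP cells (HP against UP 0.96, SE 0.22, adjusted p = 0.0606, ULP against UP 0.78, SE 0.22). Hist1h2bg showed 0.62 in HP (SE 0.19, adjusted p = 0.0633). Hist1h2be measured 3.97, 5.76 and 4.25 CPM in UP and 6.45, 6.36 and 5.70 in HP, with overlap at 1 library of each group (0.41, SE 0.17). In GENCODE its gene overlaps Hist1h1e on the same strand and Hist1h4d on the opposite one, whose reads may be shared.

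Hist1h1c, the most abundant member, had a negative value in this comparison. It stood at 66.3, 61.8 and 89.1 CPM in HP replicates 4, 5 and 6, overlapping UP cells (log2 fold change -0.21, SE 0.19, adjusted p = 0.412, and 0.17 with an offset for GC content). Without Hist1h1c, the other 69 members summed to 95.5, 102 and 82.5 RPM in UP, to 89.3, 123 and 129 in ULP and to 172, 138 and 130 in HP, with each HP library above each UP library. Hist1h1b, a further linker histone, had log2 fold changes of 1.08 in HP and 1.09 in ULP cells, from 83 counts over 9 libraries and with SEs of 0.47.

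Calls in this comparison depended on the libraries that stood apart. Without HP replicate 6, edgeR called 5 members higher (Hist1h1b, Hist1h2bc, Hist1h2bf, Hist1h4i and Hist2h2be) and Hist1h2al lower, 14.6% of those tested, beside 38.3% of all genes. Without ULP replicate 4, 4 members were called higher (9.76%), beside 25.9% of all genes, and without both libraries 8 were higher and 2 lower (Hist1h1c and Hist1h2al), 24.4% beside 48.5%. In each case the share of members called was below that of all genes, to which the members were not matched by count.

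**Figure D4:**
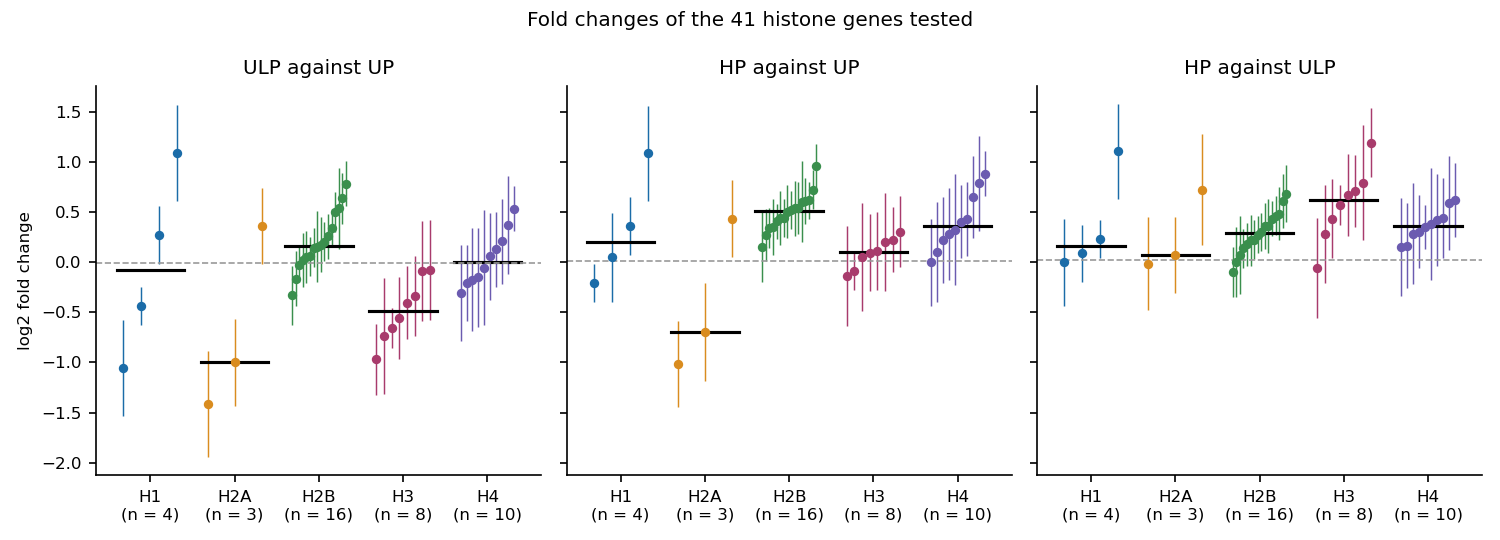
Log2 fold change with its SE (bars) of each of the 41 histone genes tested, by type, in 3 panels for the 3 comparisons of groups. Black lines are type medians and the dashed line is the median of all genes tested. H2B genes lie above 0 in HP against UP, where Hist1h2bc turned to -0.08 with an offset for GC content, and H3 genes below 0 in ULP against UP, where 2 of 8 turned positive with that offset.

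Between the primed groups, 37 of 41 members were higher in HP than in ULP cells by sign, or 90.2%, beside 55.3% of all genes tested, with a median log2 fold change of 0.35 beside 0.02. None passed the adjusted threshold in edgeR (0.17% of all genes did) or in any of the 24 alternatives, DESeq2 (0.627% of all genes) and limma included. At an unadjusted p under 0.05, 6 members were higher and none lower, 14.6% of members beside 3.94% of all genes (1.62% higher and 2.32% lower). These were Hist1h3f, Hist2h3c2, Hist1h2be and Hist1h1e, and, named after their values were seen, Hist1h2bq and Hist1h2bj. Groups were apart in 6 members, all of them higher in HP cells, 14.6% beside 4.48% of all genes (5.16% were apart with HP lower). H3 genes had a median of 0.62 with 7 of 8 positive, H4 genes 0.36 with 10 of 10 positive, H2B genes 0.29 and H1 genes 0.16. Single libraries moved these values: the H4 median was 0.07 with 6 of 10 positive without HP replicate 4, 0.22 without ULP replicate 4 and 0.69 without HP replicate 5, and the H3 median was 0.39 without HP replicate 6. The H1 median was 0.29 without HP replicate 5 and 0.25 without HP replicate 4. Without both ULP replicate 4 and HP replicate 6, H3 had 0.21, H4 0.16 and H2B 0.19 with 11 of 16 positive. Without all libraries numbered 4, H2B had 0.07 with 12 of 16 positive and H4 -0.01 with 5 of 10 positive. The comparison shares its ULP and HP libraries with those above, so its signs are no separate evidence.

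Hist1h3f had the smallest adjusted p of the family here. It measured 0.853, 0.629 and 1.17 CPM in HP replicates 4, 5 and 6, all above the ULP values given before, with a log2 fold change of 1.19 (SE 0.35, adjusted p = 0.561). Hist2h3c2 stood at 4.41, 3.18 and 3.59 CPM in HP, also above all ULP libraries and overlapping UP (0.57 against ULP, SE 0.20, adjusted p = 0.858). Hist1h1e had 1.19, 0.559 and 1.10 CPM, with a log2 fold change of 1.10 over ULP (SE 0.48) and overlap between the groups.

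Within HP cells the low H3 and H4 genes varied together between libraries, a pattern noticed after the values were seen. HP replicate 5 was the lowest of the HP libraries for 16 of the 18 H3 and H4 genes tested and the highest for none. The order was not particular to these types, as it was also the lowest for 11 of 16 H2B, 3 of 4 H1 and 2 of 3 H2A genes. H4 genes without a poly(A) signal summed to 5.90, 2.08 and 4.62 RPM in HP replicates 4, 5 and 6, beside 2.48 to 3.55 in UP and 2.72 to 3.87 in ULP cells. H3 genes without one gave 10.1, 5.98 and 10.1 RPM. Genes with a poly(A) signal, summed over all types, differed less, at 200, 178 and 187 RPM, with HP replicate 5 again the lowest. Hist1h1c and Hist1h2bc are the largest members of that sum, so it differs from the others in type as well as in signal. HP replicate 5 was also the library highest in Malat1 and farthest along the first principal component, and the part of either in this pattern was not tested. The values of HP cells for these genes therefore rest on libraries that disagree: without HP replicate 5 the H4 median against UP was 0.63 in place of 0.36 and that of H3 0.36 in place of 0.10, and without HP replicate 4 they were 0.09 and 0.02.

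**Figure D5:**
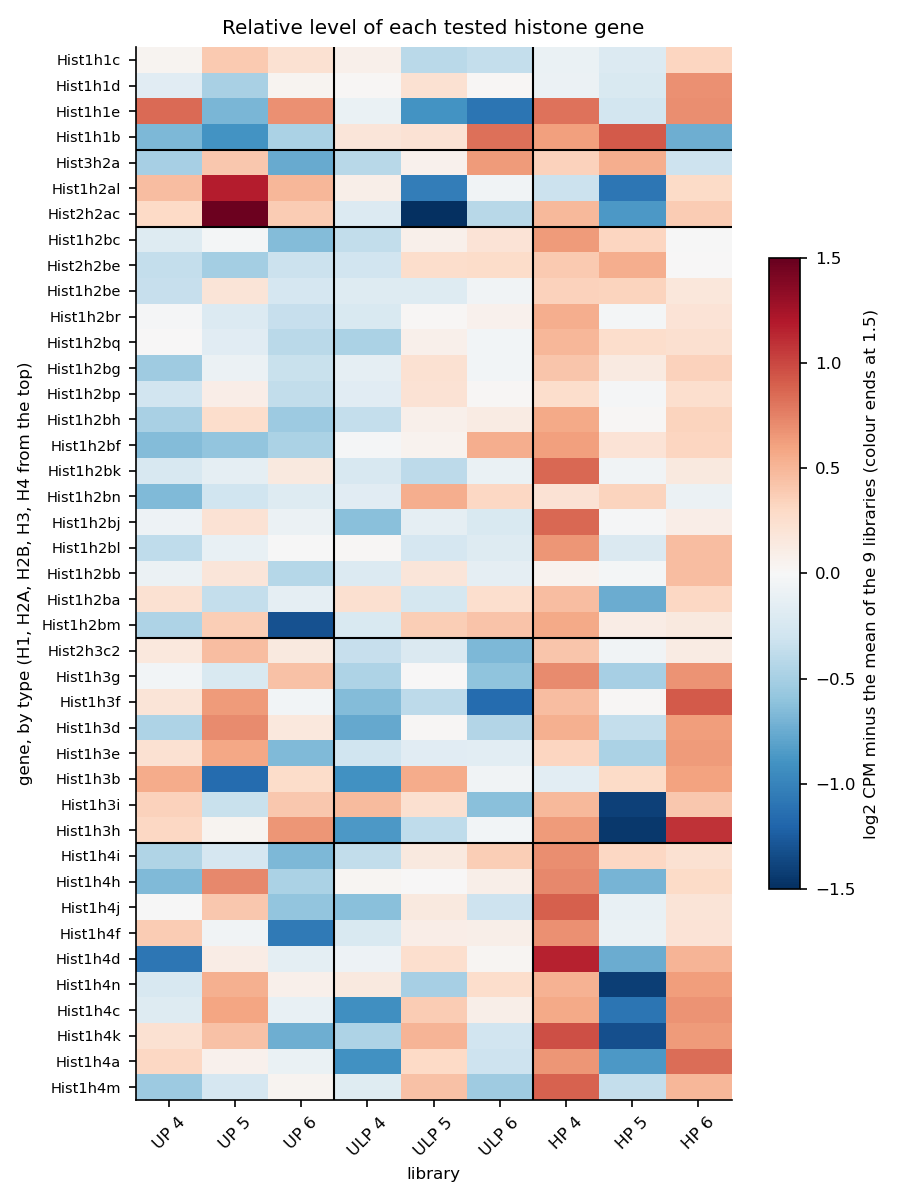
Relative level of the 41 tested histone genes (rows, by type) in each library (columns), as log2 CPM minus that gene's mean over the 9 libraries, with red above and blue below it. HP replicate 4 is the highest HP library for 25 of 41 genes, and HP replicate 5 the lowest for 32, among them 16 of 18 H3 and H4 genes.

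Replication-independent histone variants, which are made through the cell cycle from mostly polyadenylated mRNA, had higher summed levels in these poly(A)-selected libraries. Such selection depletes transcripts without a tail, so the sums do not rank the sets in the cells. The 11 variant genes summed to 420 to 621 RPKM, against 156 to 266 for the 70 replication-dependent genes. By library they stood at 1090, 1180 and 1010 RPM in UP cells, at 1120, 1280 and 1320 in ULP cells and at 1440, 1270 and 1230 in HP cells. Every HP library was above every UP library in RPM, but not after scaling by TMM factors, where HP replicates 5 and 6 (1220 and 1190) lay below UP replicate 5 (1270). None of the 10 tested passed the adjusted threshold in any comparison, with medians of -0.14 in ULP and -0.22 in HP against UP. H2afz, the H2A.Z variant, had log2 fold changes of 0.45 (SE 0.18) and 0.61 (SE 0.18, adjusted p = 0.062). The macroH2A gene H2afy had -0.32 and -0.35, and H2afx, the variant phosphorylated at DNA breaks, -0.57 and -0.28.

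Genes that act on histone mRNA were likewise below the threshold. Of 16 genes of histone mRNA end processing and decay, 8 were positive and 8 negative in both comparisons with UP cells, and 0 were called. Slbp measured 2.51, 3.34 and 1.88 RPKM in UP libraries, 2.58, 5.05 and 6.12 in ULP libraries and 7.51, 8.24 and 4.06 in HP libraries, with every HP value above every UP value (log2 fold change 1.23, SE 0.36, adjusted p = 0.0618, and 0.000889 to 0.371 over the alternatives). Lsm10 had -0.55 (SE 0.18) in ULP and -0.52 (SE 0.18) in HP cells, and Eri1, an exonuclease that trims the stem-loop end, 0.54 and 0.61.

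Of 8 genes of histone gene transcription, 6 were positive against UP cells in ULP (median 0.52) and in HP (median 0.64), and none was called. Npat, the coactivator of histone promoters, rested at 1.40, 1.02 and 0.898 RPKM in UP and 1.69 in ULP replicate 4, but at 4.94 and 5.45 in ULP replicates 5 and 6 and at 4.85, 6.29 and 2.25 in HP. The libraries high in Npat were those high on the first principal component (log2 fold change 1.89 in HP, SE 0.47, adjusted p = 0.0606). Casp8ap2, a partner of the U7 machinery, was 4.47 on the same scale with an SE of 1.23. Among 16 histone chaperone genes Daxx, which deposits the variant H3.3, was the 1 that passed, lower in HP cells (log2 fold change -0.86, SE 0.14, adjusted p = 0.0439 in edgeR). It was called in 8 of 24 alternatives, its adjusted p ran from 0.000125 to 0.371, and its log2 fold change was -0.48 with an offset for GC content.

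No S phase gene passed the threshold either. Of 24 such genes, 18 were negative in ULP (median -0.17) and 15 in HP cells (median -0.12) against UP. In either comparison 0 were called. An unadjusted edgeR p under 0.05 was reached by 1 gene for ULP (4.17%) and 5 for HP (20.8%), each with a positive sign. Over all genes tested the shares were 27.1% and 40.9%, with 17.3% and 24.3% of all genes higher. Slbp, described above, also belongs to the 24. Histone medians for ULP were 0.17 (H2B), 0.00 (H4), -0.08 (H1), -0.48 (H3) and -0.998 (H2A, 3 genes). For HP the same types had 0.51, 0.36, 0.21, 0.10 and -0.70. Pcna, the sliding clamp of DNA replication, had 0.10 (SE 0.12) and 0.18 (SE 0.12), and Mcm5, a subunit of the replicative helicase, -0.33 and -0.31 (SE 0.21 for both). Their summed RPM ran from 2530 to 3030 over UP libraries, from 2480 to 2920 over ULP libraries and from 2630 to 3180 over HP libraries, with overlap of all groups. Of 14 genes of the G2 and M phases, 7 were positive in either comparison and none was called.

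The promoters of the members differ by type in their motifs. RefSeq promoters on build GRCm38, from 250 bases before to 50 after the start, matched 61 of the 70 genes, and motifs were searched as exact letters on both strands. CCAAT was found in all promoters of the H1 (6), H2A (17), H2B (16) and H3 (10) genes but in 25.0% of 12 H4 promoters, beside 41.06% of 27025 promoters of all genes. The octamer ATTTGCAT, bound by Pou2f1, occurred in 41.18% of H2A and 43.75% of H2B promoters and in none of the other types, beside 1.97% of all. Neighbouring H2A and H2B genes transcribed away from each other share such windows, so these counts are not independent. TATAAA was in 40% to 66.67% of promoters by type, beside 15.67%. H2A and H2B, the types with the lowest and the highest summed RPKM, hold the octamer at like shares.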

How the data were processed

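Poly(A) libraries of BV-2 cells were made with a stranded mRNA kit and sequenced for 51 cycles. Per the labels and the study's methods, the authors used bcl2fastq 1.8.4, TopHat2 2.1.0 and featureCounts 1.5.0. Their deposited gene counts are unscaled integers. RPM and RPKM columns were derived from these counts by the authors, and recomputed RPM differed from the deposited ones by at most 4.9e-11. The processing notes name GRCm38 and the supplement another build.

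All 9 libraries were fitted together with edgeR 4.0.16 (R 4.3.3), using the quasi-likelihood test with group as the only term, TMM factors (0.9269 to 1.043), edgeR's filter on low counts (14702 of 48526 genes kept) and Benjamini-Hochberg adjustment over all genes tested, threshold 0.05. CPM were scaled by the TMM factors and fold changes are log2. Alternatives were DESeq2 1.42.0, limma 3.58.1 on log2(RPKM + 0.1) and log2(RPKM + 1), other size factors, no filter, only the 6 libraries compared, a replicate block, length and GC offsets (GC known for 99.1% of genes tested) and leaving out libraries. On simulated counts edgeR recovered 37% of log2 changes of 1 and 96% of 2 for ULP against UP (14541 genes). For HP against UP (14536 genes) it recovered 40% and 94%. Each gene was drawn on its own, so no simulated library stood apart from its group over many genes, as ULP replicate 4 and HP replicate 6 did. Whether the rates hold for the real libraries was therefore not tested. The changed genes were drawn only from genes above a floor on mean count. These rates therefore do not cover low members such as Hist1h2al (96 counts over 9 libraries) and Hist2h2ac (86). GC content was that of the longest GENCODE transcript of each gene. Sums per type carry no test. Stem-loops were searched in GENCODE transcripts on GRCm39 (70 genes matched), and promoters are from RefSeq (69 genes matched by symbol or synonym). The members named are the 3 of each type with the highest mean CPM and any past the threshold. The members and lists were chosen with earlier results of these data known.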

Additional observations from a re-analysis of the deposited data

How the results depend on the processing

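Histone genes called by edgeR against UP cells moved from 0 to 3 with DESeq2, 2 with no filter and 3 with only the 6 libraries compared for HP, and over the leave-one-out fits ranged from 0 to 3 for ULP and from 0 to 6 for HP. Without ULP replicate 4 and HP replicate 6, an alternative added after seeing the data, 6 were called for ULP and 10 for HP. The count for HP against ULP was 0 under all 24 alternatives. Calls over all genes were less stable. For ULP against UP, 0 became 1054 with DESeq2 and 5702 without both libraries, and the leave-one-out fits ran from 0 to 2864. For HP against UP, 77 became 3457 with DESeq2, 2018 with no filter, 1511 with only the 6 libraries compared, 46 and 38 with limma (pseudocounts 0.1 and 1) and 7243 without both libraries, and the leave-one-out fits ran from 0 to 5721. For HP against ULP, 25 became 102 with DESeq2, 53 with no filter, 0 with only the 6 libraries, 10 with limma (pseudocount 1), 39 with a length offset, 57 with a GC offset and 8 without both libraries, with 0 to 30 over the leave-one-out fits. The cause was not tested. The median log2 fold change of the members stayed positive for HP against UP (0.22 to 0.63 over the leave-one-out fits) and for HP against ULP (0.11 to 0.52), and changed sign for ULP against UP (-0.08 to 0.18 over all alternatives). With GC and length offsets, the HP median against UP was 0.53 and 0.52.

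With the replicate block, 0 genes were called for HP against UP and 0 for HP against ULP, 0 and 0 with a GC offset added and 6 and 0 with a length offset added, and no histone gene changed its call. Nothing in the labels makes a shared number a shared batch. The deviations of libraries with the same number correlated between -0.838 and 0.683. ULP replicate 4 and HP replicate 6, with unlike numbers, correlated at 0.898. The libraries that stood apart weigh on these correlations, which therefore cannot show whether the numbers pair the samples. No named member was called, so that its call could only be gained: 21 values of named members passed under an alternative, 16 of them without 1 or both of the libraries that stood apart. The call of Daxx for HP against UP was lost in 16 of 24 alternatives. Low counts limit the H2A genes most, of which 17 of 20 were not tested.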
